A study of Mus musculus with 13 samples.

Results

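The 10 genes described here encode 4 carbonic anhydrases (Car2, Car4, Car12, Car14), 3 carbonic anhydrase-related proteins (Car8, Car10, Car11) and 3 bicarbonate transporters of the SLC4 family (Slc4a3, Slc4a4, Slc4a10). They were chosen as a family and matched by symbol. Each had 1 row in the deposited table, so 10 of its 37636 genes are described. Every member passed the filter of a mean of 1 FPKM over all libraries, as 13905 genes did. FPKM counts fragments relative to gene length and library size. RNA came from brain of male Balb/c mice aged 6 to 8 weeks, without a named brain region. The groups were 4 libraries of mice given 6-OHG and kept at 8000 m for 24 h (6-OHG), 5 libraries of the same exposure without the compound (Mod), and 4 libraries of the normal condition without it (Con). The compound is given only by this code, with no dose, route or vehicle. Nothing in the labels shows that replicates are separate animals, so p-values may measure technical spread alone.

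Carbonic anhydrases are zinc enzymes that interconvert carbon dioxide and bicarbonate, releasing or binding a proton. Car2 is the abundant cytosolic form, in brain best known from oligodendrocytes and choroid plexus. Car4 is anchored on the cell surface, including that of brain capillaries, and Car12 and Car14 span the membrane with the catalytic domain outside. Car8, Car10 and Car11 keep the fold but have lost the activity. The SLC4 transporters carry the bicarbonate across membranes and so set the pH of neurons, glia and cerebrospinal fluid.

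Levels of the members, which FPKM gives per length, spanned a wide range. In Con, Car2 was highest at 93.8 ± 23.9 FPKM (SD, n = 4), followed by Car11 at 60.01 ± 12.9 and Slc4a10 at 35.2 ± 4.42 FPKM, and these 3 did not overlap with each other. Slc4a3, Slc4a4, Car4, Car10, Car14 and Car12 came next, and each overlapped with its neighbour in this order. Car8 was lowest at 2.13 ± 0.396 FPKM and lay apart from Car12. In Mod the order began with Car11 at 56.6 ± 7.95 FPKM and Car2 at 49.5 ± 9.08 FPKM (n = 5), whose ranges overlapped. In 6-OHG, Car11 at 46.7 ± 10.7, Slc4a10 at 43.0 ± 0.809 and Car2 at 38.9 ± 5.58 FPKM (n = 4) overlapped with their neighbours. Car2 was thus the highest member in Con, but not in either exposed group.

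**Figure D1:**
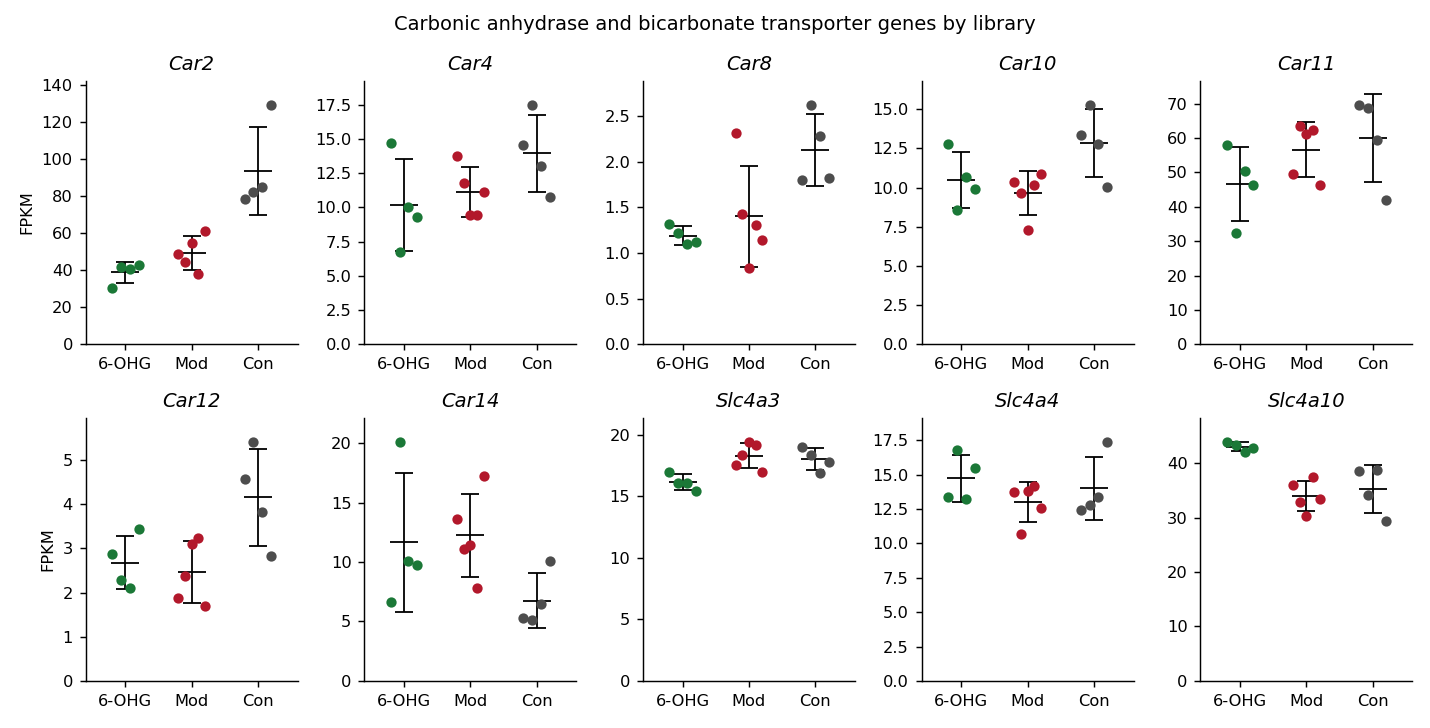
FPKM of each member in every library. Points are libraries, horizontal bars the group mean and whiskers 1 SD, with n = 4 for 6-OHG, 5 for Mod and 4 for Con; each vertical axis starts at 0. All Car2 points of 6-OHG and Mod lie below the lowest Con point of 78.4 FPKM, and all Slc4a10 points of 6-OHG lie above those of Mod and Con.

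Libraries differed in how like the rest of their group they were. 6-OHG replicate 2 and Con replicate 4 had the lowest mean correlation across genes with the other libraries of their group (r = 0.963 and 0.969). In Mod it was lowest for replicate 5 (r = 0.979), close to replicate 4 (r = 0.98). The 8 striatal neuron markers summed to 65.1 FPKM in 6-OHG replicate 2, 110 in Mod replicate 5 and 259 in Con replicate 4, the lowest sum of each group. Their sum was also low in Mod replicate 1 (158 FPKM, against 403 to 593 in Mod replicates 2 to 4). The same held for 6-OHG replicate 3 (175 FPKM, against 465 and 451 in 6-OHG replicates 1 and 4). Among the members, Car14 was highest and Car11 lowest of its group in 6-OHG replicate 2, Mod replicate 5 and Con replicate 4. Neuron markers were present as the label brain requires, with 5 genes summing to 545 to 635 FPKM in 6-OHG and 535.5 to 596.5 in Mod, against 569 to 637.5 in Con. Of these 5 genes, Tubb3 fell in both comparisons with Con. The columns summed to between 268208 and 312908 FPKM, and the read totals behind them are unknown.

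Changes below are differences in group means of log2(FPKM + 1), which understate the fold of genes with low values. A gene rose or fell where limma gave an adjusted p under 0.05 over all genes tested. The first comparison, Mod against Con, asks what exposure to altitude changed. Car2 and Car12 fell, no member rose, and 8 of 10 did not pass the test. Over all genes tested, 23.8% were called, 14.0% as higher and 9.81% as lower, so the 2 of 10 members called are near that share. The split over all genes depends on scaling, with 1940 higher and 1364 lower here, but 1095 higher and 1603 lower after columns were set to equal sums. The median change of the members was -0.20, beside 0.01 over all genes tested. Groups did not overlap for 1 member, Car2, which was lower, against 22.4% of genes tested (13.5% higher, 8.87% lower).

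Car2 (ENSMUSG00000027562, a protein-coding gene on GRCm38 chromosome 3 from 14886273 to 14900770) had the largest change of any member. Its 5 Mod libraries had 48.8, 44.3, 54.6, 38.0 and 61.5 FPKM, against 78.4, 82.2, 85.0 and 129 FPKM in the 4 Con libraries. The highest Mod library thus lay below the lowest Con library. The mean in Mod was 0.527 times that in Con, with a log2 change of -0.90 (95% interval -1.26 to -0.54, adjusted p = 0.00218 in limma). Car2 kept its call under each of 27 other settings, with changes between -1.001 and -0.73. In bulk tissue, fewer cells that express a gene and less of its RNA per cell cannot be told apart.

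Markers of oligodendrocytes, a main site of Car2 in brain, are given beside it. Of 12 such markers tested 1 fell, Ugt8a, which makes a myelin lipid (10.6 FPKM in Mod, against 32.8 in Con), and the list's median change was -0.28. Over all genes tested 9.81% fell. None of the 12 was at 0 in any library. Their sum ranged from 945 to 2164 FPKM in Mod, against 1375 to 1838 FPKM in Con, so the groups overlapped. Relative to that sum in the same library, Car2 stood at 2.84% to 4.02% in Mod, against 5.48% to 7.04% in Con. The part of these markers in the Car2 result was not tested. Choroid plexus markers, another site of Car2, summed to 70.2 to 285 FPKM in Mod, against 337 to 765 FPKM in Con, without overlap. Ttr made up the largest part of these sums, with 43.5 to 247 FPKM in Mod, against 275 to 686 in Con. Ttr was not called (log2 change -1.15, adjusted p = 0.51 in limma), although its groups did not overlap. The fit shares its spread with 6-OHG, where Ttr ranged from 1.67 to 353 FPKM, so this p-value does not show that Mod and Con were alike. Kl (0.5694 FPKM in Mod, against 1.504 in Con) and Aqp1 (0.4419, against 1.149), both under the filter, were lower without overlap, as was Enpp2. Folr1, Clic6, Kcne2, Otx2, Kcnj13, Steap1, Prlr and Slco1a5 overlapped between the groups. Every choroid plexus marker had a lower mean in Mod than in Con, from 0.3348 times (Folr1) to 0.8492 times (Clic6). Of these 12 markers 4 were tested and 1 fell, Enpp2, which is also made by oligodendrocytes. None of the 12 was at 0 in every library of a group. The part of the choroid plexus markers was likewise not tested.

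**Figure D2:**
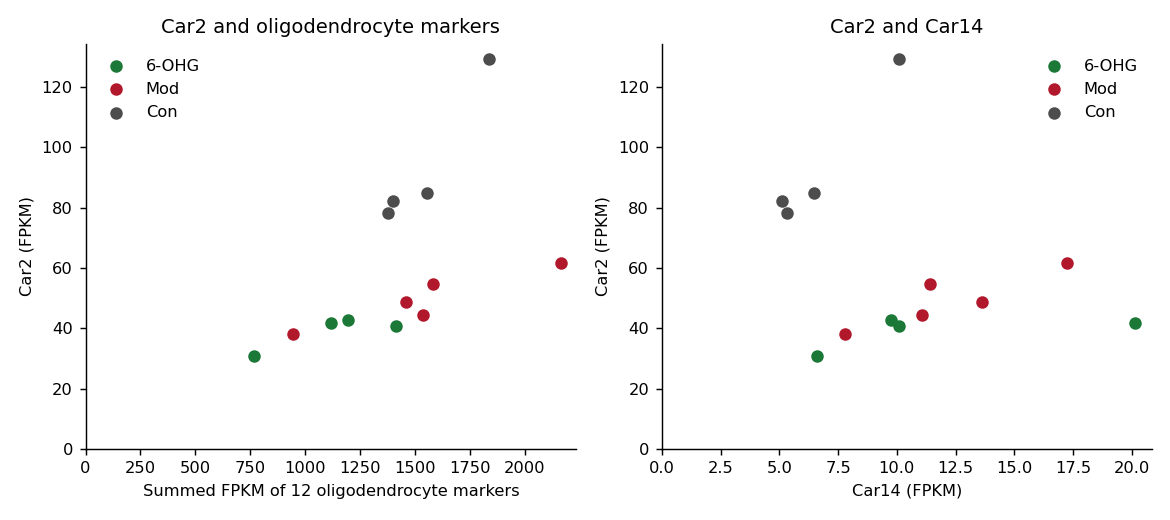
Car2 against the summed FPKM of 12 oligodendrocyte markers (left) and against Car14 (right), 1 point per library, both axes in FPKM from 0. On the left, the 4 Con libraries, with marker sums of 1375 to 1838 FPKM, lie above all others in Car2, while the 9 exposed libraries spread over sums of 768.5 to 2164 FPKM. On the right the 9 exposed libraries lie below and mostly to the right of them.

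Car12 (ENSMUSG00000032373, chromosome 9 from 66713686 to 66766845), which in human tumours is a known target of the hypoxia response, fell. It had 1.89, 2.37, 3.10, 3.24 and 1.70 FPKM in Mod, against 4.57, 5.42, 3.82 and 2.83 FPKM in Con. Only Con replicate 4 lay within the Mod range. The log2 change was -0.57 (95% interval -0.95 to -0.20, adjusted p = 0.0291 in limma). That call ended on leaving out Mod replicate 1 (adjusted p = 0.0662), 2 (0.0531) or 5 (0.0655), or Con replicate 1 (0.0792), 2 (0.0916) or 3 (0.0558). Across the 13 fits that left out 1 library, the change stayed between -0.71 and -0.46.

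Car14 (ENSMUSG00000038526, chromosome 3 from 95897768 to 95904691), the other membrane-spanning enzyme, went the opposite way in its mean and did not pass the test. It had 13.6, 11.1, 11.4, 7.79 and 17.2 FPKM in Mod, against 5.32, 5.13, 6.48 and 10.1 FPKM in Con. Con replicate 4 lay above Mod replicate 4, and with either of them left out the groups were apart. The mean in Mod was 1.81 times that in Con, with a log2 change of 0.77 (95% interval 0.17 to 1.38, adjusted p = 0.0612 in limma). It was called when Con replicate 4 (change 0.96, adjusted p = 0.0272) or Mod replicate 4 (0.91, 0.0390) was left out. The same held for 6-OHG replicate 1 (0.0453) and 2 (0.0219), which enter only through the shared spread. Without Con replicate 4, 6-OHG replicate 2 and Mod replicate 5 together, a choice made after the data were seen, the change was 0.83 (adjusted p = 0.00667).

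The bases before the starts of these 2 enzyme genes are shown because their means moved in opposite directions at altitude. Capitals mark the core of the hypoxia response element, ACGTG or GCGTG on either strand, in the 250 bases before the RefSeq start (GRCm38.p6, written 5′ to 3′ on the gene's strand). Car12 lies on the plus strand at chr9:66713436-66713685 and held no core there. Car14 lies on the minus strand at chr3:95904686-95904935, and its core began at base -7 from the start.
Car12: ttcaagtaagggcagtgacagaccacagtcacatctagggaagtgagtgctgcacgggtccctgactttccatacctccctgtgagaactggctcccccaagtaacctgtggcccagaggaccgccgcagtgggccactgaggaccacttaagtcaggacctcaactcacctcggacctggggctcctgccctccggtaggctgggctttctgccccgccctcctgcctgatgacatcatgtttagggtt
Car14: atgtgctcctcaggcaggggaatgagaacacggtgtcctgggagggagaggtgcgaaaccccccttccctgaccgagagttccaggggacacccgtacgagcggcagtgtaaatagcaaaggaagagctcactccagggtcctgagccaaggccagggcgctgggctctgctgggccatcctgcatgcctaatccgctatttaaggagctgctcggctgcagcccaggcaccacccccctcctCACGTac
Of all promoters of this length in the table, 38.6% held such a core. It was present before 5 of the 12 starts listed for the 8 members with an entry, while Car2 and Car8 had no entry. Besides Car14 these were starts of Car10, Car11, Slc4a3 and Slc4a4, and none of these 5 genes was called in Mod against Con. A match is a description of letters and not a binding site.

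The remaining enzyme and the related proteins were not called in Mod against Con. Car4, the capillary surface enzyme, had 9.43 to 13.8 FPKM in Mod, against 10.8 to 17.5 FPKM in Con (log2 change -0.30, adjusted p = 0.268 in limma). Of 10 endothelial markers 5 rose (Cldn5, Pecam1, Cdh5, Flt1 and Slc2a1) and 3 fell (Slco1a4, Abcb1a and Itm2a), and they summed to 97.8 to 113 FPKM in Mod, against 94.9 to 114 in Con. Over all genes tested 14.0% rose and 9.81% fell. Car10, a secreted ligand of neurexins, had 7.28 to 10.9 FPKM in Mod, against 10.0 to 15.3 FPKM in Con (-0.38, adjusted p = 0.0588). Only Con replicate 4 lay within the Mod range of Car10, which was called on leaving it out (-0.48, 0.0188) and on leaving out 6-OHG replicate 1 (0.0477) or 2 (0.0458). Car8, which binds the inositol trisphosphate receptor Itpr1 and marks Purkinje cells, had 0.836 to 2.31 FPKM in Mod, against 1.80 to 2.62 FPKM in Con (-0.40, adjusted p = 0.0575). Mod replicate 1 was the only Mod library within the Con range of Car8, and without it the gene was called (-0.52, 0.00670). Car11, which like Car10 is secreted, had 46.5 to 63.5 FPKM in Mod, against 42.0 to 69.7 FPKM in Con (-0.07, adjusted p = 0.828).

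No transporter was called in Mod against Con. Slc4a3, a chloride-bicarbonate exchanger that brings acid load into neurons, averaged 18.3 ± 1.04 FPKM in Mod (n = 5) and 18.0 ± 0.883 in Con (n = 4), with a 95% interval of -0.09 to 0.14 for the log2 change. Slc4a4, the electrogenic sodium-bicarbonate cotransporter of astrocytes, averaged 13.0 ± 1.44 FPKM in Mod and 14.0 ± 2.30 in Con (interval -0.33 to 0.14). Slc4a10, a sodium-dependent bicarbonate importer of neurons and choroid plexus, averaged 34.0 ± 2.83 FPKM in Mod and 35.2 ± 4.42 in Con (interval -0.22 to 0.13).

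**Figure D3:**
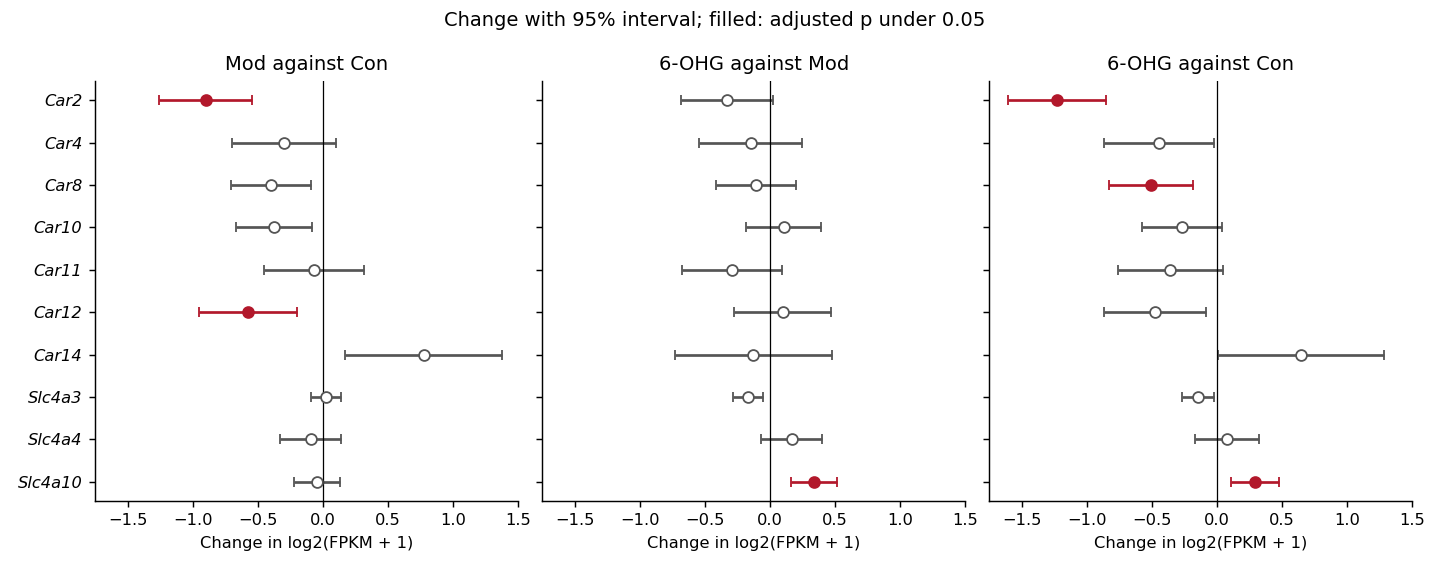
Change in log2(FPKM + 1) of each member in the 3 comparisons, with its 95% interval from limma; filled red points have an adjusted p under 0.05. Car2 and Car12 are filled in Mod against Con, Slc4a10 in 6-OHG against Mod, and Car2, Car8 and Slc4a10 in 6-OHG against Con.

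The second comparison, 6-OHG against Mod, asks what the compound changed in exposed mice. It shares the Mod libraries with the first. Slc4a10 rose, no member fell, and 9 of 10 did not pass the test. Over all genes tested 15.3% were called, 6.98% as higher and 8.35% as lower, so 1 of 10 members is no more than that share. The median change was -0.12 over the members and -0.02 over all genes tested.

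Slc4a10 (ENSMUSG00000026904, a protein-coding gene on chromosome 2 from 62046462 to 62326730) had 44.0, 43.4, 42.1 and 42.8 FPKM in 6-OHG, against 36.0, 32.9, 30.2, 37.5 and 33.4 FPKM in Mod. All 6-OHG libraries lay above all Mod libraries, and also above the highest Con library at 38.7 FPKM. Groups did not overlap for this member alone, against 15.9% of genes tested (7.60% higher, 8.34% lower). The log2 change was 0.34 (95% interval 0.16 to 0.51, adjusted p = 0.0168 in limma), and it was called in each of 13 fits that left out 1 library. When trends in exon length and GC content were taken out within libraries, the change was 0.22 and not called (adjusted p = 0.116). The call was also lost with replicate numbers as blocks, though these numbers were not taken to pair samples. Exons of Slc4a10 sum to 6424 bases, beside a median of 4102.5 over genes tested. Choroid plexus markers, of which 4 of 12 were tested and 0 were called, summed to 27.6 to 405 FPKM in 6-OHG, against 70.2 to 285 in Mod. Median changes were -0.03 for 5 neuron markers, 0.27 for 5 cortical excitatory neuron markers and -0.45 for 8 striatal neuron markers, with 0 called in each list. The part of these lists in the Slc4a10 result was not tested. The 250 bases before the first RefSeq start of Slc4a10 (plus strand, chr2:62046265-62046514) are shown since it is the member that rose, and they held no hypoxia core.
Slc4a10: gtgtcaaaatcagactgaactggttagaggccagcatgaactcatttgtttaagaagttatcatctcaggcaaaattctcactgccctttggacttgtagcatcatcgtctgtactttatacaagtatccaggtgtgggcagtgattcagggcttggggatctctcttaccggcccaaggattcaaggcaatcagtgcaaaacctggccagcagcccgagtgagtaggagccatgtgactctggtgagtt

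Slc4a3 lay at the threshold. It had 17.0, 16.05, 16.1 and 15.4 FPKM in 6-OHG, against 17.6, 18.4, 19.4, 19.2 and 17.0 FPKM in Mod, so that 6-OHG replicate 1 and Mod replicate 5 alone kept the groups from being apart. Its log2 change was -0.17 (95% interval -0.29 to -0.05, adjusted p = 0.05004 in limma, just above the threshold). It was called in 6 of 27 other settings, among them without Mod replicate 5 (-0.20, 0.0386) and with length and GC trends removed (-0.21, 0.0335). Across the 27 settings the change ran from -0.22 to -0.07 and the adjusted p in limma from 0.0315 to 0.537. Slc4a4 had 13.2 to 16.8 FPKM in 6-OHG, against 10.7 to 14.2 in Mod (0.17, adjusted p = 0.322).

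Car2 did not pass this test, and its mean in 6-OHG lay farther from Con than its mean in Mod. It had 30.7, 41.6, 40.6 and 42.8 FPKM in 6-OHG, against 37.99 to 61.5 FPKM in Mod. The log2 change was -0.33, with an interval of -0.69 to 0.03 (adjusted p = 0.196 in limma). The 12 oligodendrocyte markers, none of which was called here, had a median change of -0.32 and summed to 768.5 to 1414 FPKM in 6-OHG, against 945 to 2164 in Mod. Relative to that sum Car2 stood at 2.87% to 3.99% in 6-OHG, against 2.84% to 4.02% in Mod.

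The other enzymes and related proteins overlapped between 6-OHG and Mod. Car12 averaged 2.68 ± 0.601 FPKM in 6-OHG (n = 4) and 2.46 ± 0.697 in Mod (n = 5). Car14 averaged 11.6 ± 5.87 FPKM in 6-OHG and 12.2 ± 3.50 in Mod, with 20.1 FPKM in 6-OHG replicate 2 and 6.62 in 6-OHG replicate 1. Car11 averaged 46.7 ± 10.7 FPKM in 6-OHG and 56.6 ± 7.95 in Mod. Car4, Car8 and Car10 had log2 changes of -0.15, -0.11 and 0.11. Intervals for Car14 (-0.73 to 0.47) and Car4 (-0.55 to 0.25) extend to both sides of 0.

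The third comparison, 6-OHG against Con, places the treated mice beside the normal condition and shares libraries with both others. Car2 and Car8 fell, Slc4a10 rose, and 7 members did not pass the test, while 30.7% of all genes tested were called (16.3% higher, 14.4% lower). The same 3 members had groups that did not overlap, against 28.1% of genes tested (15.6% higher, 12.5% lower), so both counts of 3 are near the background. The median change was -0.31 over the members and 0.00 over all genes tested.

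Car2 averaged 38.9 ± 5.58 FPKM in 6-OHG and 93.8 ± 23.9 in Con (n = 4 each), a ratio of 0.415 and a log2 change of -1.23 (95% interval -1.60 to -0.85, adjusted p = 0.000325 in limma). Of the 12 oligodendrocyte markers 4 fell, namely Ugt8a, Ermn, Opalin and Mag, 0 rose and 8 were not called, with a list median of -0.49. Over all genes tested 30.7% were called in either direction and 14.4% as lower. Their sum was 768.5 to 1414 FPKM in 6-OHG, against 1375 to 1838 in Con. Relative to the sum, Car2 stood at 2.87% to 3.99% in 6-OHG, against 5.48% to 7.04% in Con. Choroid plexus markers, of which 4 of 12 were tested and 0 called, summed to 87.3, 27.6, 353 and 405 FPKM in 6-OHG replicates 1 to 4, against 337 to 765 FPKM in Con. Replicates 1 and 2 of 6-OHG thus lay below all Con libraries, and replicates 3 and 4 within their range. Ttr alone had 43.8, 1.67, 299 and 353 FPKM in 6-OHG replicates 1 to 4, against 275 to 686 in Con. The part of either marker list in this result was not tested.

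Car8 (ENSMUSG00000041261, chromosome 4 from 8143362 to 8239041) had 1.32, 1.22, 1.095 and 1.12 FPKM in 6-OHG, against 1.80, 2.62, 2.28 and 1.82 FPKM in Con. All 6-OHG libraries lay below all Con libraries. The log2 change was -0.51 (95% interval -0.83 to -0.18, adjusted p = 0.0217 in limma), and it was not called without Con replicate 2 (-0.44, 0.0637) or 3 (-0.48, 0.0526). Of 5 Purkinje cell markers 3 were tested and 0 called, and the 5 summed to 25.2 to 37.6 FPKM in 6-OHG, against 27.5 to 36.3 in Con. Most of that sum was Calb1 alone, with 16.46 to 31.85 FPKM in 6-OHG and 19.35 to 28.68 in Con, so it mainly follows 1 gene. The Purkinje gene Pcp2 reached no more than 0.258 FPKM in any 6-OHG library and 0.115 in any Con library.

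Slc4a10 averaged 43.0 ± 0.809 FPKM in 6-OHG and 35.2 ± 4.42 in Con (log2 change 0.29, 95% interval 0.10 to 0.48, adjusted p = 0.0226 in limma). It was not called on leaving out 6-OHG replicate 1 (0.28, 0.0527) or Con replicate 2 (0.28, 0.0528), or with length and GC trends taken out (0.20, 0.0923). Car12 had 2.88, 2.29, 2.11 and 3.43 FPKM in 6-OHG, of which replicates 1 and 4 lay within the Con range of 2.83 to 5.42. Car12 (-0.48, adjusted p = 0.0642 in limma) was called on leaving out Con replicate 4 (-0.61, 0.0218) or 6-OHG replicate 4 (-0.57, 0.0458). Car14 had 6.62, 20.1, 10.09 and 9.75 FPKM in 6-OHG, against 5.32 to 10.1 in Con, where only replicate 4 exceeded the lowest 6-OHG library. Car14 (0.64, adjusted p = 0.113) was called without 6-OHG replicate 1 (0.85, 0.0492), and Car4 (-0.45, 0.0973) likewise (-0.63, 0.0193). Car11 (-0.36, 0.165) was called without Con replicate 4 (-0.52, 0.0390).

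The summed FPKM of the 13 mouse genes of active carbonic anhydrases places the Car2 values within the whole set. The sum was 62.2 to 76.4 FPKM in 6-OHG and 64.9 to 98.4 FPKM in Mod, against 111.5 to 159 FPKM in Con. Without Car2 it was 27.7 to 34.8 FPKM in 6-OHG and 26.9 to 37.0 in Mod, against 29.9 to 37.2 in Con. Car2 made up 49.3% to 60.7% of the sum in 6-OHG and 57.2% to 64.2% in Mod, against 68.8% to 81.2% in Con. Car14 made up 10.6% to 26.3% in 6-OHG and 12.0% to 17.5% in Mod, against 4.29% to 6.33% in Con. The related proteins without activity summed to 42.0 to 72.0 FPKM in 6-OHG and 58.5 to 74.6 in Mod, against 53.8 to 86.7 in Con, and overlapped.

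**Figure D4:**
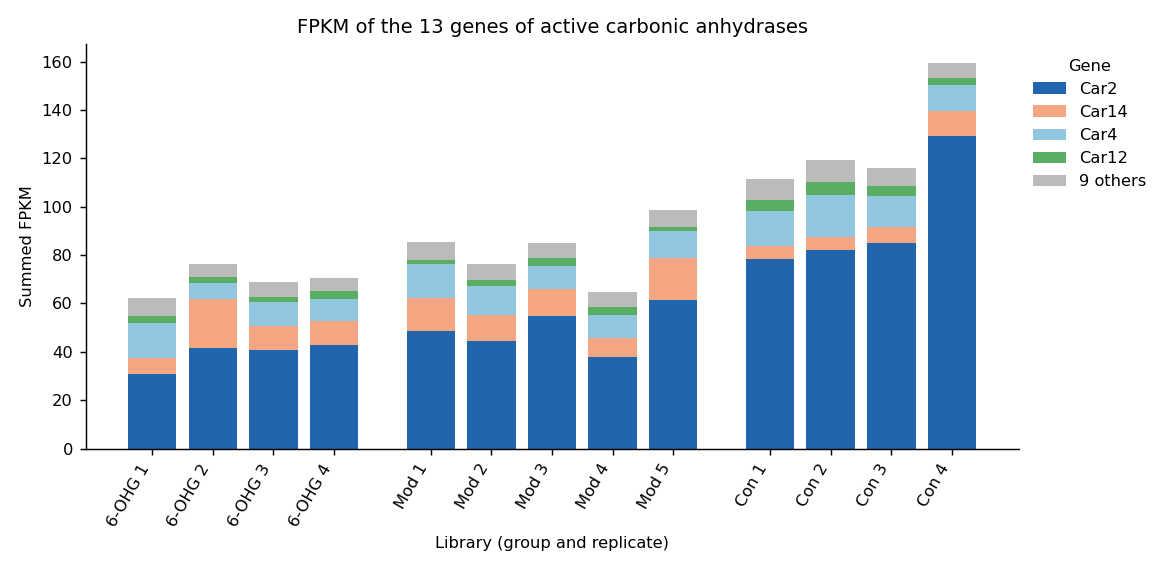
Summed FPKM of the 13 genes of active carbonic anhydrases in each library, stacked by gene, with the vertical axis from 0; the grey part is the sum of the 9 genes that are not members. Con bars reach 111.5 to 159 FPKM and exposed bars 62.2 to 98.4 FPKM, and the parts above Car2 are of like height in all groups.

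Other genes of acid-base balance were described by lists. Their counts of calls, and those of the partners below, stand beside the shares over all genes tested. These were 23.8% in Mod against Con, 15.3% in 6-OHG against Mod and 30.7% in 6-OHG against Con. The lists hold few tested genes, so the counts are not read as results about a class. Of the 9 other carbonic anhydrases 2 were tested and 0 called in any comparison, Car7, the neuronal cytosolic form, and Car15. Car9, a known hypoxia target in human tumours, stayed under the filter, with 0.163 to 0.327 FPKM in 6-OHG and 0.162 to 0.535 in Mod, against 0.0195 to 0.1997 FPKM in Con. Of the 7 other SLC4 transporters 3 were tested, and Slc4a8, a sodium-driven exchanger of neurons, was the only one called. It fell in Mod against Con (8.55 FPKM in Mod, against 10.3 in Con, log2 change -0.24, adjusted p = 0.0426 in limma). It rose in 6-OHG against Mod (11.9 FPKM in 6-OHG, change 0.43, adjusted p = 0.00426). Of 10 SLC26 anion exchangers 5 were tested, and Slc26a8 rose in Mod against Con (1.25 FPKM in Mod, against 0.789 in Con, change 0.33) and in 6-OHG against Con (1.63 FPKM in 6-OHG, change 0.56).

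Sodium-proton exchangers extrude acid or acidify organelles, and 2 of 7 tested were called in Mod against Con, beside 23.8% of all genes tested. Slc9a7, an exchanger of the trans-Golgi, fell (1.47 FPKM in Mod, against 2.82 in Con, log2 change -0.64, adjusted p = 0.00933 in limma), and Slc9a8 rose (4.81 FPKM in Mod, against 3.87 in Con, 0.26). In 6-OHG against Mod, Slc9a7 rose (3.58 FPKM in 6-OHG, against 1.47 in Mod, 0.90, adjusted p = 0.00277), with no overlap between groups. Of 9 sensors of protons or bicarbonate 5 were tested, and none was called in Mod against Con or 6-OHG against Mod. In 6-OHG against Con, the acid-sensing channel gene Asic4 fell by 0.62 and the proton receptor gene Gpr4 rose by 0.27.

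Among 11 known partners of the members 10 were tested. In Mod against Con, Nrxn2, a neurexin of the family that Car10 binds, fell (13.9 FPKM in Mod, against 16.6 in Con, log2 change -0.25, adjusted p = 0.0141 in limma), as did the kinase gene Wnk1 (8.25 FPKM in Mod, against 10.5 in Con, -0.31, adjusted p = 0.00667). No partner was called in the other 2 comparisons. Itpr1, the partner of Car8, had 15.2 to 37.2 FPKM in 6-OHG and 12.7 to 24.5 in Mod, against 14.4 to 35.1 in Con. Both receptor phosphatases with a carbonic anhydrase-like domain were tested. Ptprz1 fell in Mod against Con (12.1 FPKM in Mod, against 15.9 in Con, -0.38, adjusted p = 0.00891), and Ptprg rose in 6-OHG against Mod (8.28 FPKM in 6-OHG, against 7.03 in Mod, 0.21, adjusted p = 0.0299).

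As genes of like pattern, those with the highest Pearson r of log2 values over all 13 libraries were named among 12021 genes. The libraries fall into the 3 groups, so r mixes differences between and within groups and is given as a description. Car2 was closest to Dnajb2 (r = 0.983) and Garem2 (r = 0.974). Among the membrane enzymes, Car4 was closest to Snx11 (r = 0.940) and Plekho1 (r = 0.897), Car12 to Neto2 (r = 0.962) and Kcns2 (r = 0.958), and Car14 to Rhou (r = 0.958) and Ptpdc1 (r = 0.950). Car8 was closest to Ube2v1 (r = 0.867) and Crat (r = 0.865), Car10 to Lrrc4 (r = 0.912) and Nptxr (r = 0.911), and Car11 to Ppp1r1a (r = 0.974) and Ctxn1 (r = 0.958). Slc4a3 was closest to Rbck1 (r = 0.952) and Sh3glb2 (r = 0.935), Slc4a4 to Unc13c (r = 0.887) and Cd164 (r = 0.884), and Slc4a10 to Stxbp5 (r = 0.946) and Mapk8 (r = 0.942).

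**Figure D5:**
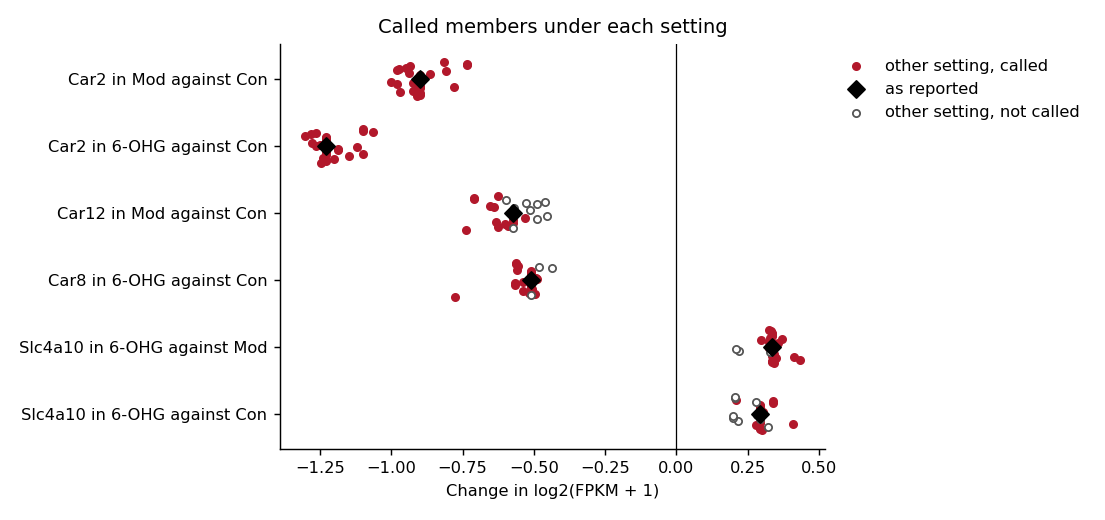
Change in log2(FPKM + 1) of the 6 called results under every setting tried. Black diamonds are the values as reported, red points are other settings in which the gene was called, and open points those in which it was not. Both Car2 results are red throughout, while Car12, Car8 and Slc4a10 have open points.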

How the data were processed

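Libraries of mouse brain RNA were read as pairs on an Illumina NovaSeq, per the labels' protocols. The authors deposited FPKM, 1 column per library; 13 columns were used. The submitters' processing notes list DESeq2, edgeR, featureCounts 1.5.0-p3, StringTie 2.1.6, HISAT2 2.2.1, FastQC and cutadapt 1.9, and the builds GRCm38 and mm10, without roles. Annotation release and strand setting are not given in the sources used here, so overlapping antisense reads may be included. Depth is unknown, so no counting error is given.

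Symbols came from a table of gene names (37499 of 37636 IDs matched), positions and exon lengths from GENCODE M21 on GRCm38, promoters from RefSeq (GRCm38.p6). Genes averaging 1 FPKM or more were fitted as log2(FPKM + 1) with 1 mean per group over all 13 libraries in limma 3.58.1 (R 4.3.3; variances moderated along a trend), with Benjamini-Hochberg adjustment over all genes tested. The procedure was tested on simulated data. Members and lists were chosen with earlier results of these data known. All members are named, and of the lists of acid-base genes and partners the called genes, up to 4 per comparison by p; marker lists are given by counts and sums. Genes of like pattern were the 2 with the highest r per member, without predicted loci. Figures used matplotlib 3.10.9.

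Other settings were a pseudocount of 0.1, no filter, a filter at 5 FPKM, 3 scalings, robust moderation, library weights, fits without the third group, replicate numbers as blocks, removal of length and GC trends by loess, and libraries left out.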

Additional observations from a re-analysis of the deposited data

Results flagged for a closer look

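Car2 in Con replicate 4 lay far from the rest of its group: 129.4 FPKM, against 78.4 to 85.0 FPKM in the other 3 Con libraries, a gap of 0.869 of the group's range. It was the only such value among 30 combinations of member and group, and chance gives about 1 in 20. Without that library Car2 changed by -0.73 in Mod against Con (adjusted p = 0.00348 in limma) and by -1.065 in 6-OHG against Con (adjusted p = 0.00053). The same library had the highest sum of oligodendrocyte markers in its group, 1838 FPKM.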

How the results depend on the processing

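Of the called members, Car2 kept its direction and its call in both comparisons with Con under all 27 alternatives. Car12 in Mod against Con was called in 17 of 26, Car8 in 6-OHG against Con in 23 of 26, and Slc4a10 in 24 of 27 against Mod and 18 of 27 against Con. The cause of each lost call was not tested, except that leaving out libraries leaves fewer samples.

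In Mod against Con, where 2 members were called, 1 was called with no filter, with a filter at 5 FPKM (which drops Car8 and Car12), with the replicate block and with that block after length and GC trends were removed. With library weights, and without Con replicate 4 and 6-OHG replicate 2 (with or without Mod replicate 5), 4 were. Leaving out 1 library gave 1 to 4. In 6-OHG against Mod, where 1 was called, 2 were called with the filter at 5 FPKM, with robust moderation, with library weights and without those 3 libraries, and 0 with the replicate block, with or without length and GC trends (Slc4a10 0.33, adjusted p = 0.0817 in limma, with the block alone). Leaving out 1 library gave 1 to 2. In 6-OHG against Con, where 3 were called, 5 were called with library weights and without those 3 libraries, and leaving out 1 library gave 1 to 5. The set of 3 libraries was chosen after the data were seen.

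Signs turned only among members not called. In Mod against Con, Slc4a3 was -0.046 with equal sums and -0.001689 with median-of-ratios scaling, and Car11 was 0.0003359 with the replicate block. Leaving out libraries gave -0.23 to 0.013 for Car11, -0.005731 to 0.047 for Slc4a3, -0.14 to 0.018 for Slc4a4 and -0.12 to 0.003503 for Slc4a10. In 6-OHG against Mod it gave -0.33 to 0.017 for Car4, -0.20 to 0.015 for Car8 and -0.41 to 0.081 for Car14. With length and GC trends removed, Car12 was -0.003133 in that comparison and Slc4a4 was -0.023 in 6-OHG against Con; with the block added, Car12 was -0.080, Car14 0.060 and Slc4a4 -0.023.

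Same-numbered libraries of different groups had correlations of their deviations between -0.483 and 0.346, so the numbers were not taken to pair samples, and in the block fit Mod replicate 5 stands alone and adds nothing. Over all genes, 6-OHG against Mod had 970 higher and 1161 lower calls, against 1385 and 398 with equal sums and 1307 and 965 with quantile scaling. It had 2131 calls in all, against 945 with length and GC trends removed, 846 with the block and 23 with both. Without read totals, the counting error of members near 1 FPKM, such as Car8, is unknown.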

Other observations

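The ratio of Car2 to Car14 within a library was computed after both genes' values were seen. It was 4.63, 2.07, 4.03 and 4.39 in 6-OHG and 3.58, 4.01, 4.78, 4.88 and 3.57 in Mod, against 14.75, 16.04, 13.1 and 12.8 in Con. Con replicate 4, which had the highest level of both genes in its group, had a ratio close to the other Con libraries. The ratio divides out any scaling shared by a library, and no test is given for it.

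Car3, a muscle and fat carbonic anhydrase that ends at base 14872523 of chromosome 3, next to the start of Car2 on the same strand, stayed under the filter. It had 0.0543, 0.214, 0 and 0.0863 FPKM in 6-OHG and 0.161, 0.182, 0.468, 0.115 and 0.0743 in Mod, against 0.909, 0.374, 0.742 and 0.890 FPKM in Con. The 6-OHG libraries lay below all Con libraries, and Mod replicate 3 alone overlapped with Con. Car13 of the same cluster had 0.494 to 1.05 FPKM in 6-OHG and 0.319 to 0.839 in Mod, against 0.350 to 1.43 in Con.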
